A study of Mus musculus with 6 samples.

Results

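Interferon-induced and antigen presentation genes were described in whole fetal livers of mouse embryos at embryonic day 11.5. The 44 genes were listed with earlier results of these data known, and were matched to the arrays' features by Entrez gene ID, and 42 of them were measured among the 23279 genes tested; Gbp6 and Ifi44 were not analysed here. They fall into 8 GTPases of the guanylate-binding and immunity-related families, 4 signalling factors, 20 antiviral effectors and sensors, and 10 genes of antigen processing and MHC class I. The study compared 3 arrays of liver labelled Stab2Cre;Gata4 knockout with 3 arrays of control liver labelled Stab2Cre;Gata4 heterozygous. Both groups came from crosses of Stab2-Cre tg/wt;Gata4 fl/wt with Gata4 fl/fl mice, and by their titles both carry Stab2Cre. The floxed line is B6;129-Gata4tm1.1Sad/J. The Stab2 promoter is active in the endothelium that lines the sinusoids, so the Cre is driven in those cells whereas RNA was taken from the whole liver. The labels call the replicates biological, and the number of embryos behind each array is not stated in them.

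Interferons are secreted proteins that cells release on infection and, at low levels, in normal tissue. Type I interferons signal through Ifnar1 and Ifnar2 to a complex of STAT proteins and IRF9 that binds interferon-stimulated response elements. Interferon gamma signals through Ifngr1 and Ifngr2 to STAT dimers that bind gamma-activated sites. The genes they induce block viral replication, attack vacuoles that hold microbes, and raise the display of peptides on MHC class I, which the immunoproteasome, the TAP transporter and tapasin supply. Fetal liver is the site of blood formation at this stage, and leukocytes express many of these genes without infection.

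Values are log2 expression from RMA, which gives each array the same distribution, so a shift shared by most genes would be invisible, and with 3 arrays a group the number of arrays limits the precision. Gata4 read 10.42 ± 0.19 in livers labelled knockout and 9.91 ± 0.05 in controls (mean ± SD, n = 3), which is higher rather than lower (log2 fold change 0.51, SE 0.12, limma adjusted p = 0.0409). Gata4 is also expressed by liver cells without Cre, and where its probes lie relative to the deletion is unknown, so the labels are not checked by it and each direction below rests on them. The liver marker Alb read between 13.33 and 13.51 on every array. The erythroid factor Klf1 was also bright, but fell in livers labelled knockout (9.58, 9.16 and 9.23 against 9.93, 10.11 and 10.32; log2 fold change −0.80, adjusted p = 0.0256). In labelled knockout replicate 2, 91 genes read at least 1 log2 unit above every other array, against 4 to 10 on each of the other arrays. They include Barx1 of stomach mesenchyme (10.70, against 7.52 to 8.41 on the other arrays) and the enteric neuron receptor Ret (7.63, against 4.29 to 4.76). Heart muscle light chain Myl7 read 8.72 in labelled knockout replicate 3 and 8.55 in control replicate 2, and 5.71 to 7.17 elsewhere; these 3 genes were chosen after their values were seen. Xist was high in all 3 labelled knockout arrays and in control replicate 2 (10.19 to 10.71) and low in control replicates 1 and 3 (3.58 and 3.96), so sex was not balanced.

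More of the genes were lower than higher in livers labelled knockout. Of the 42 genes, 6 fell past an adjusted p of 0.05 and 0 rose by limma, while at an unadjusted p under 0.05 there were 14 lower and 1 higher, against 11.5% and 11.1% of all genes. The 6 were the GTPases Ifi47 and Igtp, the antiviral adaptor Ifi35, the immunoproteasome subunit Psmb8, the peptide transporter subunit Tap2 and tapasin Tapbp. Over all genes 2.77% fell and 3.59% rose by the same rule, so 14.3% of the members fell against a background of 2.77%. The median log2 fold change was −0.19 over the members and −0.01 over all genes, and 34 of the 42 differences were negative. In 14 members all 3 labelled knockout arrays lay below all 3 controls, or 33.3%, against 14.3% of all genes; only Oasl2 showed the opposite order, against 13% of all genes.

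**Figure D1:**
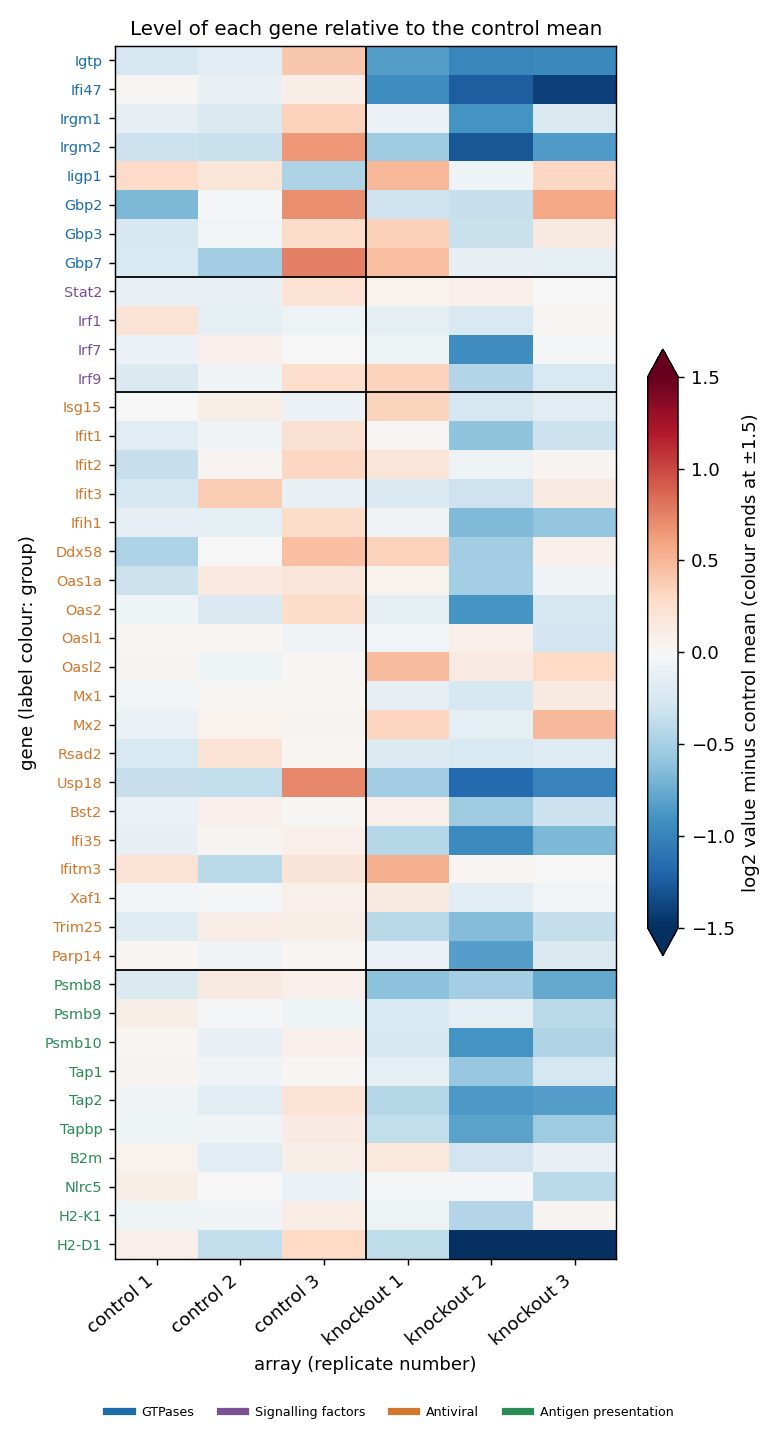
Each row is a gene and each column an array, and colour gives the log2 value minus the mean of the 3 control arrays, with the colour scale ending at ±1.5. Blue cells gather in the labelled knockout columns of the antigen presentation rows and of Ifi47, Igtp and Irgm2, and control replicate 3 is the reddest control column.

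Array by array the picture was uneven. Labelled knockout replicate 2 gave the lowest of the 6 values in 30 of the 42 genes (71.4%), compared with 22.9% of all genes. Control replicate 3 gave the highest value in 20 (47.6%), compared with 18.1% of all genes. The median of the members relative to the control mean was −0.08, −0.48 and −0.21 in labelled knockout replicates 1, 2 and 3, and −0.09, −0.05 and 0.10 in controls 1, 2 and 3. Labelled knockout replicate 1 thus lay within the controls on this measure. Without labelled knockout replicate 2 the median was −0.14 and 2 members fell, Ifi47 and Psmb8, against 1.29% of all genes. Without control replicate 3, 0 members passed by limma (12 lower and 0 higher at an unadjusted p under 0.05), and 0.0687% of all genes fell. Against control replicate 2 alone, the control with high Xist, the median was −0.23. With a term for high Xist it was also −0.23, because the estimate then rests on that same control. The 2 settings are thus not separate checks. With the term 0 members passed by limma (9 lower and 1 higher at an unadjusted p under 0.05), and 0 of all genes fell.

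Of the 8 GTPases 2 fell, Ifi47 and Igtp, and 0 rose, against 2.77% and 3.59% of all genes, with a median of −0.21. Immunity-related GTPases and guanylate-binding proteins assemble on membranes around intracellular microbes. Ifi47, also called Irg47, read 6.05, 5.74 and 5.58 in labelled knockout replicates 1 to 3 and 6.99, 6.87 and 7.08 in controls 1 to 3. The groups did not overlap, and the fall was 2.28-fold (log2 fold change −1.19, SE 0.13, limma adjusted p = 0.0093). It passed in 5 of the 6 fits without 1 array, and the exception was the fit without control replicate 3 (−1.14, adjusted p = 0.0536). Igtp, also called Irgm3, read 5.48, 5.33 and 5.34 against 6.05, 6.14 and 6.71 in the controls. It fell 1.89-fold (−0.92, SE 0.17, adjusted p = 0.0258), with control replicate 3 the highest array, and the call was lost without labelled knockout replicates 2 or 3 or control replicates 2 or 3 (adjusted p = 0.0514 to 0.0836).

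Irgm2, the next coding gene to Igtp on chromosome 11, read 5.30, 4.54 and 4.98 against 5.51, 5.49 and 6.49. All labelled knockout arrays lay below the controls, but the difference did not pass (−0.89, SE 0.29, adjusted p = 0.116), and without control replicate 3 it was −0.56. Irgm1, the family's regulator of autophagy, overlapped between the groups at 6.97, 6.16 and 6.85 against 6.93, 6.84 and 7.41 (−0.40, SE 0.23, adjusted p = 0.372). Gbp2 read 5.90, 5.87 and 6.79 against 5.54, 6.19 and 6.92, a spread of more than 1 log2 unit within the controls and no difference between the means (−0.03, SE 0.36, adjusted p = 0.980). Gbp7 (0.07, SE 0.31) and Gbp3 (0.05, SE 0.20) did not pass, nor did Iigp1 (0.25, SE 0.22, adjusted p = 0.581). Gbp genes share long stretches of sequence, as do Oas, Ifit and class I genes, so their features may pick up relatives.

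The DNA just before some gene starts is shown because the neighbours Igtp and Irgm2 share a nearly identical stretch of 50 bases there. Each sequence is the 150 bases before the start from RefSeq, build GRCm38.p6, written 5′ to 3′ along the gene. Capitals mark matches to a core of the interferon-stimulated response element, GAAA and GAAA with any 2 bases between them, and to a gamma-activated site core, TTCNNNGAA, both searched on both strands. The first is called the response element core here, and where matches touch or overlap their capitals merge. Igtp is chr11:58199406-58199555 on the plus strand, Irgm2 chr11:58214827-58214976 on the plus strand, Irgm1 chr11:48871421-48871570 on the minus strand and Gbp2 chr3:142620513-142620662 on the plus strand.
Igtp: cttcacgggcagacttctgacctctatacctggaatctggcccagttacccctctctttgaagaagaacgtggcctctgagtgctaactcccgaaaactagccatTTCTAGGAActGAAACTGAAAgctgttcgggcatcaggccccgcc
Irgm2: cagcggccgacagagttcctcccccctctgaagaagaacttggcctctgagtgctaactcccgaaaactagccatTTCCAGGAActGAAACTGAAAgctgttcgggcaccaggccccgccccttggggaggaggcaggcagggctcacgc
Irgm1: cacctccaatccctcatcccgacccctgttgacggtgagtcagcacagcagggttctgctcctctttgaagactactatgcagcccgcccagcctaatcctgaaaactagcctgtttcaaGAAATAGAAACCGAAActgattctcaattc
Gbp2: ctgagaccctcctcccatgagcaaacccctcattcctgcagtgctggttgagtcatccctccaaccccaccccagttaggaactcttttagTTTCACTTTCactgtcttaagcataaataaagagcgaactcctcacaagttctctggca
Aligned on TTCNNNGAA without gaps, Igtp and Irgm2 matched at 49 of 50 bases around that motif. Identity over the rest of the 150 bases was not counted. Whether the shared stretch bears on the differences of these genes was not tested. The motif lay 45 bases before the start of Igtp and 75 before that of Irgm2. Irgm1 holds a pair of overlapping response element cores and Gbp2 a match on the other strand. Promoters of 300 bases, 250 before and 50 after the start, were listed for 34 members. Of 39 member promoters, 17 held the response element core (43.6%) and 10 held TTCNNNGAA (25.6%), against 3.44% and 8.3% of 32851 promoters of all genes. By group, the response element core was found in 6 of 8 GTPase promoters, 9 of 16 antiviral, 1 of 6 signalling factor and 1 of 9 antigen presentation promoters. The promoter listed for Ifi47 held neither set of letters. A match is a description of letters and not a bound site.

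The signalling factors did not pass, with 0 of 4 called by limma and 0 at an unadjusted p under 0.05. Stat2, the partner of IRF9 in the type I response, read 7.76, 7.79 and 7.71 in livers labelled knockout and 7.60, 7.60 and 7.93 in controls (0.04, SE 0.11, adjusted p = 0.885). Irf9 read 7.74, 6.95 and 7.17 against 7.18, 7.35 and 7.66 (−0.11, SE 0.21). Irf1, a factor induced by interferon gamma, read 5.18, 5.08 and 5.34 against 5.52, 5.18 and 5.23 (−0.11, SE 0.12), so each of these 3 overlapped between the groups. Irf7, which amplifies type I interferon, was low on labelled knockout replicate 2 alone (5.0, against 5.84 to 6.01 elsewhere; −0.34, SE 0.22, adjusted p = 0.436).

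Among the antiviral genes 1 of 20 fell (5%) and 0 rose, against 2.77% and 3.59% of all genes, and the median was −0.15. In 4 of the 20 (20%) all labelled knockout arrays lay below the controls, against 14.3% of all genes, and in 1 all lay above, against 13%. Ifi35, a leucine zipper protein that binds other interferon-induced proteins, read 7.34, 6.81 and 7.10 in livers labelled knockout and 7.64, 7.81 and 7.85 in controls. The groups did not overlap and the fall was 1.61-fold (−0.69, SE 0.14, adjusted p = 0.0343), but it passed in only 1 of the 6 fits without 1 array (adjusted p = 0.0217 to 0.128). Usp18, the protease that removes ISG15 from proteins and dampens the type I receptor, read 5.92, 5.27 and 5.44 against 6.09, 6.06 and 7.16. Its labelled knockout arrays lay below every control, the mean difference was among the larger ones (−0.90, SE 0.30, adjusted p = 0.125), and without control replicate 3 it was −0.53. Trim25, the ubiquitin ligase of the RIG-I pathway, read 8.44, 8.20 and 8.49 against 8.67, 8.94 and 8.93 and did not pass (−0.47, SE 0.12, adjusted p = 0.0602). Parp14, a mono-ADP-ribosyltransferase, read 5.72, 4.98 and 5.59 against 5.83, 5.75 and 5.83 (−0.38, SE 0.18, adjusted p = 0.273); its groups did not overlap either.

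The RNA sensors Ifih1, which encodes MDA5, and Ddx58, which encodes RIG-I, overlapped between the groups. Ifih1 read 6.81, 6.20 and 6.27 against 6.74, 6.72 and 7.14 (−0.44, SE 0.18, adjusted p = 0.209). Ddx58 read 6.43, 5.57 and 6.17 against 5.63, 6.09 and 6.55 (−0.03, SE 0.27). Oasl2, a 2′-5′ oligoadenylate synthetase-like protein, was the member with the largest positive difference, at 5.93, 5.58 and 5.75 against 5.50, 5.39 and 5.47 (0.30, SE 0.11, adjusted p = 0.157). The remaining antiviral genes had log2 fold changes between −0.43 (Oas2) and 0.22 (Mx2), and none passed. They include Ifit2 (0.05, SE 0.17) and Ifit3 (−0.14, SE 0.19), antiviral proteins with tetratricopeptide repeats, the tethering factor Bst2 (−0.26, SE 0.15), the radical SAM enzyme Rsad2 (−0.21, SE 0.12), and the membrane protein Ifitm3 (0.18, SE 0.21).

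Several classical antiviral genes were dim. Isg15, the ubiquitin-like modifier, read 4.26, 3.68 and 3.77 in livers labelled knockout and 3.92, 4.02 and 3.84 in controls (−0.02, SE 0.15). Across the members 11 of 42 had a mean at or below 4.39, the 95th percentile of the means of 1083 olfactory receptor features, genes not known for a role in liver. These were Isg15, Ifit1, Oas1a, Oasl1, Mx1, Mx2, Xaf1, Iigp1, Gbp3, Psmb9 and Nlrc5. Detection calls were not used, so for these genes a level could not be told from background and a difference may be understated. Of the 31 members above that level 6 fell and 0 rose, against 4.27% of all genes above it that fell, and the median was −0.34, beside −0.02 for those genes. The 150 bases before the Isg15 start, chr4:156200819-156200968 on the minus strand of GRCm38.p6, are shown because this dim gene holds 3 overlapping response element cores, in capitals, in a single run.
Isg15: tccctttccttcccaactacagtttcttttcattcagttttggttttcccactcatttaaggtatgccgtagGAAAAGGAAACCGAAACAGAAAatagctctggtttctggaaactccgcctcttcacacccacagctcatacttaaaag

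**Figure D2:**
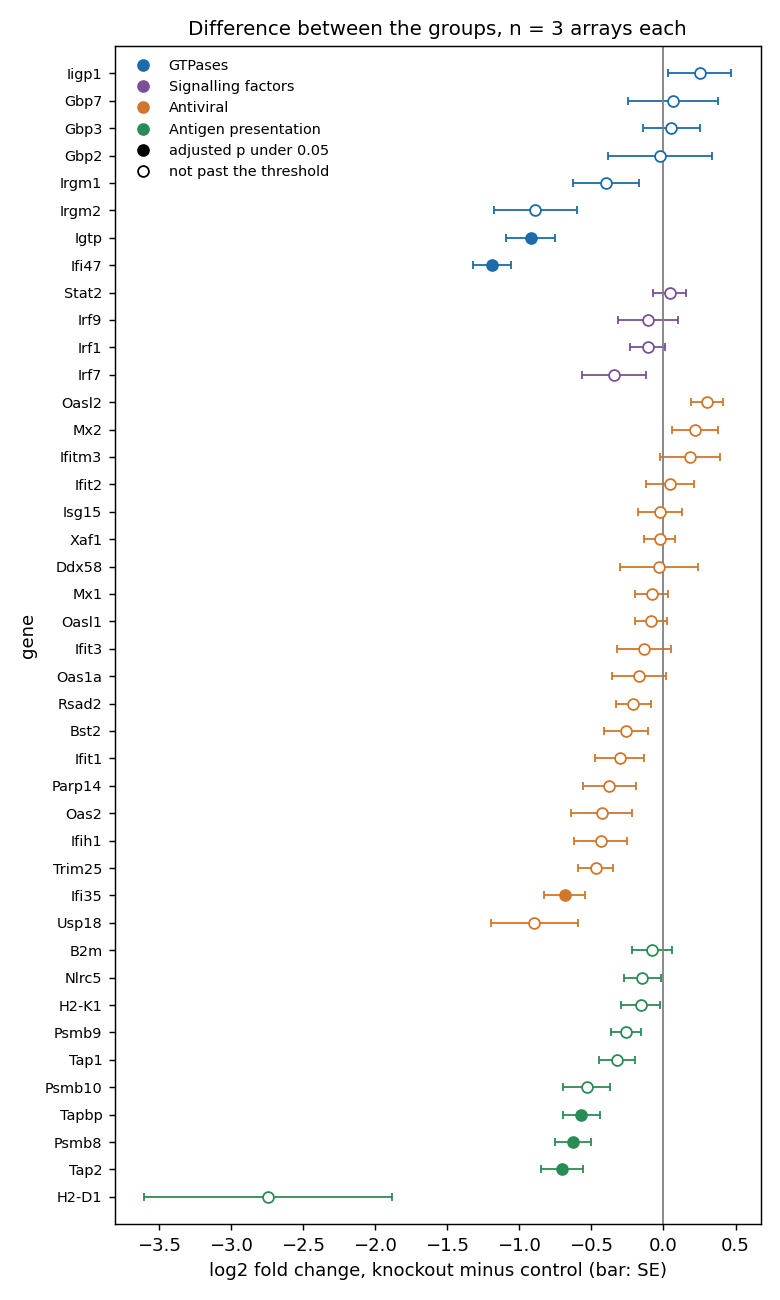
Points give the log2 fold change of each gene, labelled knockout minus control, with its standard error from limma, and filled points passed an adjusted p of 0.05. Filled points are Ifi47, Igtp, Ifi35, Tapbp, Psmb8 and Tap2, all negative, and H2-D1 has by far the widest bar (SE 0.86).

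Of the 10 antigen presentation genes 3 fell and 0 rose, against 2.77% and 3.59% of all genes. In 7 all labelled knockout arrays lay below the controls, against 14.3% of all genes. The 7 include the dim Psmb9, and H2-D1, whose labelled knockout replicate 1 (8.30) lay barely below control replicate 2 (8.31). All 10 had a negative log2 fold change, with a median of −0.43, and in B2m, H2-K1 and Nlrc5 the groups overlapped. Per array the group's median relative to the control mean was −0.24, −0.54 and −0.43 in labelled knockout replicates 1 to 3 and 0.03, −0.05 and 0.09 in controls 1 to 3, so each labelled knockout array lay below each control.

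The immunoproteasome swaps 3 catalytic subunits of the standard proteasome for interferon-induced ones, Psmb8, Psmb9 and Psmb10. Psmb8 read 5.80, 5.89 and 5.65 in livers labelled knockout and 6.19, 6.54 and 6.48 in controls, and fell 1.55-fold (−0.63, SE 0.12, adjusted p = 0.0297). Psmb10 read 9.03, 8.37 and 8.82 against 9.29, 9.16 and 9.35 (−0.53, SE 0.16, adjusted p = 0.1), and passed without labelled knockout replicate 1 (−0.68, adjusted p = 0.0490). Psmb9 read 4.16, 4.24 and 3.99 against 4.48, 4.38 and 4.33 (−0.26, SE 0.10, adjusted p = 0.177). In each of the 3 subunits all labelled knockout arrays lay below all controls, against 14.3% of all genes. Of 12 measured genes of the constitutive core, 0 passed by limma, and the median was −0.14. At an unadjusted p under 0.05, 2 were lower and 0 higher, against 11.5% and 11.1% of all genes. In 6 of these 12 (50%) all labelled knockout arrays also lay below the controls, against the same 14.3%, Psmb6 among them. Psmb6 and Psmb7, which Psmb9 and Psmb10 replace, differed by −0.15 (SE 0.08, adjusted p = 0.362) and −0.09 (SE 0.09, adjusted p = 0.671). Psmb5, which Psmb8 replaces, was not analysed here. The interferon-induced proteasome activators Psme1 (−0.04, SE 0.14) and Psme2 (−0.37, SE 0.15, adjusted p = 0.185) did not pass. Whether the immunoproteasome subunits differ from the constitutive ones was not tested. The 150 bases before the Psmb8 start, chr17:34198045-34198194 on the plus strand of GRCm38.p6, are shown as those of the subunit that fell, with TTCNNNGAA in capitals.
Psmb8: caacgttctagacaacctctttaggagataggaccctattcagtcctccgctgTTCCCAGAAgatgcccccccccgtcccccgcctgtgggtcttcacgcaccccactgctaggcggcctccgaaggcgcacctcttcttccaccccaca

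Peptides reach MHC class I through the TAP transporter, a pair of Tap1 and Tap2, and tapasin, which holds empty class I molecules at it. Tap2 read 4.70, 4.27 and 4.30 in livers labelled knockout and 5.08, 4.98 and 5.33 in controls, and fell 1.63-fold (−0.71, SE 0.15, adjusted p = 0.0340). Tapbp read 8.05, 7.62 and 7.90 against 8.36, 8.38 and 8.55, a fall of 1.48-fold (−0.57, SE 0.13, adjusted p = 0.0407). Tap1 read 5.60, 5.17 and 5.47 against 5.77, 5.68 and 5.75 (−0.32, SE 0.12, adjusted p = 0.170). In all 3 every labelled knockout array lay below every control, an order seen in 14.3% of all genes. Psmb9, Tap1, Psmb8 and Tap2 are neighbours with 0 coding genes between them in the RefSeq order of chromosome 17. The Psmb8 call held without labelled knockout replicate 2 (adjusted p = 0.0382) or control replicate 1 (0.0386), whereas those of Tap2 and Tapbp held only without labelled knockout replicate 1 (0.0208 and 0.0318). Without other single arrays the adjusted p was 0.0507 to 0.114 for Psmb8, 0.0692 to 0.123 for Tap2 and 0.0678 to 0.147 for Tapbp.

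The class I molecules themselves did not pass. The light chain B2m read 11.95, 11.50 and 11.68 in livers labelled knockout and 11.85, 11.63 and 11.89 in controls (−0.08, SE 0.14, adjusted p = 0.808). The heavy chain H2-K1 read 7.52, 7.16 and 7.64 against 7.54, 7.55 and 7.71 (−0.16, SE 0.14, adjusted p = 0.574), and Nlrc5, the class I transactivator, differed by −0.15 (SE 0.13). All 3 overlapped between the groups.

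The other classical heavy chain, H2-D1, stood apart. It read 8.30, 4.41 and 5.12 in labelled knockout replicates 1, 2 and 3 and 8.76, 8.31 and 8.98 in controls 1, 2 and 3. Labelled knockout replicate 1 read about the same as control replicate 2 (8.31), while replicates 2 and 3 lay at least 3.19 below every other array. The range within the labelled knockout group was 3.89, against 0.67 in the controls, and only 4 of 23279 genes (0.0172%), H2-D1 among them, had a labelled knockout range as wide. The group difference of −2.74 (SE 0.86) did not pass (adjusted p = 0.104); without labelled knockout replicate 1 it was −3.92 (adjusted p = 0.0112), and without replicate 2 it was −1.98 (adjusted p = 0.204). The low mean of the labelled knockout group thus rests on 2 of its 3 arrays. The floxed line is of mixed strain, the H2 alleles of each liver are not known here, and whether the feature reads each allele alike was not tested, so these values may not measure expression alone. H2-Q7, another class I gene, read 5.92, 4.33 and 4.38 against 6.32, 4.88 and 5.91. Of 38 H2 genes measured on chromosome 17, 4 had labelled knockout replicates 2 and 3 below the other 4 arrays (10.5%), compared with 12.9% of all genes, and H2-D1 was the only H2 gene with a gap of at least 1 log2 unit.

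**Figure D3:**
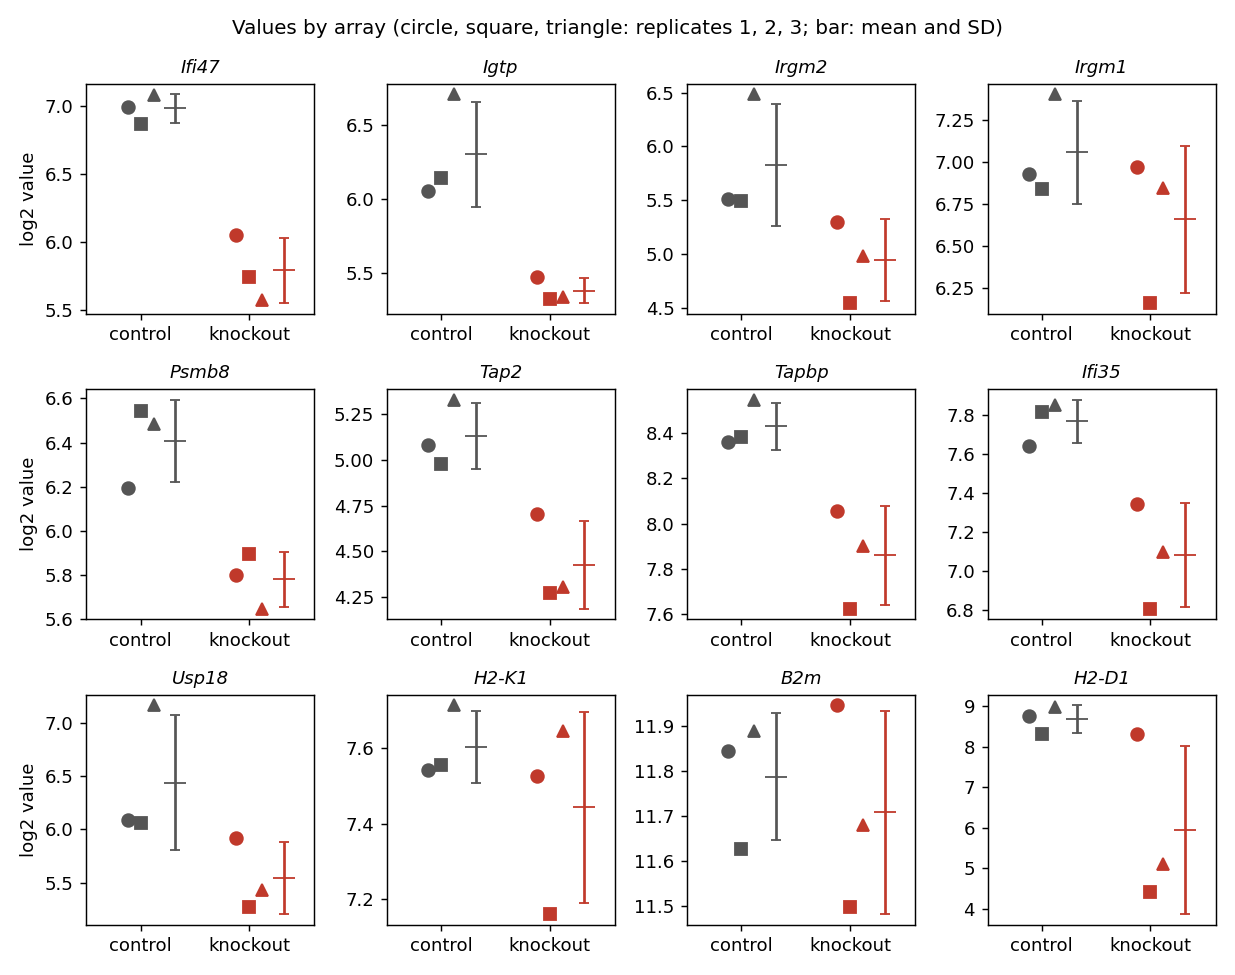
Log2 values of 12 genes are plotted by group, with circles, squares and triangles for replicates 1, 2 and 3 and a bar for mean and SD (n = 3). Each panel has its own axis; the groups are apart in Ifi47, Igtp, Psmb8, Tap2, Tapbp and Ifi35, overlap in Irgm1, H2-K1 and B2m, and H2-D1 is near 8.3 in labelled knockout replicate 1 but at 4.41 and 5.12 in replicates 2 and 3.

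Of 131 further genes measured in 7 lists, 10 fell (7.63%) and 0 rose by limma, beside the background of 2.77% and 3.59%. At an unadjusted p under 0.05 there were 30 lower and 3 higher, beside 11.5% and 11.1% of all genes, and the median was −0.15. Whether members and these genes differ in this was not tested. Of 15 interferon ligands 0 passed, and 0 did at an unadjusted p under 0.05, but 10 of the 15 had means at or below the olfactory receptor level. Among 15 receptor and JAK-STAT genes, 1 fell, the phosphatase Ptpn6, which is also abundant in blood cells (−0.83, SE 0.16, adjusted p = 0.0278). The type I receptor chain Ifnar1 read 10.05, 10.18 and 10.15 in livers labelled knockout and 9.85, 9.67 and 9.77 in controls (0.37, SE 0.09, adjusted p = 0.0590). The interferon gamma receptor chain Ifngr1 read 8.60, 8.14 and 8.51 against 8.81, 9.06 and 9.02 (−0.54, SE 0.14, adjusted p = 0.0605). Neither overlapped between the groups and neither passed. Ifnar2 (−0.04), Ifngr2 (0.17) and Jak1 (0.10) did not pass, nor did Jak2 (−0.40, adjusted p = 0.0735) and Tyk2 (−0.45, adjusted p = 0.0602).

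The counts in the next lists stand beside the same 2.77% of all genes that fell and 3.59% that rose. A single call in a short list says little beyond that share. Among 21 other IRFs and nucleic acid sensors 3 fell and 0 rose. These were the DNA sensor Aim2 (−0.76, SE 0.12, adjusted p = 0.0178), Irf5 (−0.58, SE 0.14, adjusted p = 0.0497) and the endosomal RNA receptor Tlr7 (−0.62, SE 0.15, adjusted p = 0.0474). Irf8, a factor of myeloid cells, did not pass (−0.69, adjusted p = 0.0727), nor did Irf3, which acts without induction (−0.24, adjusted p = 0.132). Of 39 other induced genes 4 fell and 0 rose, with a median of −0.13. They were Trim30a (−1.08), the nucleotide kinase Cmpk2 (−0.66), the ubiquitin ligase Dtx3l (−0.62) and the RNA-binding helicase Znfx1 (−0.70). Trim30a was among the 14 of these 39 genes with a mean at or below the olfactory receptor level. Of 17 further class I and loading genes 1 fell, the peptide-trimming aminopeptidase Erap1 (−0.59, SE 0.11, adjusted p = 0.0280), while the chaperones Calr (−0.04), Canx (−0.05) and Pdia3 (0.07) read between 11.57 and 12.56 on each array. Of 12 MHC class II genes 1 fell, the lysosomal protease Ctss (−1.24, SE 0.13, adjusted p = 0.0082), which passed in all 6 fits without 1 array. The class II molecules and their factors H2-Aa (0.20), Cd74 (−0.33) and Ciita (−0.23) did not pass. The means of H2-Aa and Cd74 lay at or below the olfactory receptor level.

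Markers of several cell types also differed between the groups. In whole liver, fewer cells of a type and less RNA per cell cannot be told apart. The counts of markers called stand beside 2.77% of all genes that fell and 3.59% that rose by limma. Of 14 pan-leukocyte markers 8 fell and 0 rose, with a median of −0.79. Their summed linear level ran from 8880 to 10593 in controls and from 5356 to 7639 in livers labelled knockout. Of 17 macrophage markers 12 fell and 0 rose (median −1.06), and their summed level ran from 3132 to 4007 in controls and from 1535 to 1997 in livers labelled knockout. No marker reads 0 on this scale; Ptprc, which encodes CD45, read 5.78, 5.14 and 5.54 against 6.68, 6.45 and 6.82. Relative to the control mean the pan-leukocyte median was −0.40, −1.01 and −0.89 in labelled knockout replicates 1, 2 and 3, and the macrophage median was −0.91, −1.18 and −0.91. In controls 1, 2 and 3 the pan-leukocyte median was 0.16, −0.15 and −0.04, and that of the members was −0.09, −0.05 and 0.10. In livers labelled knockout both medians were highest in replicate 1 and lowest in replicate 2 (members −0.08, −0.48 and −0.21). A low replicate 2 was not particular to leukocyte markers. It was also the lowest labelled knockout array for endothelial (0.32, 0.02 and 0.51), hepatoblast (0.18, 0.03 and 0.23) and mesenchymal medians (0.68, 0.28 and 0.72). Those medians were highest in replicate 3, and the erythroid medians were −0.94, −0.91 and −0.90. Of 11 erythroid markers 6 fell and 0 rose (median −0.83), with control 3 the highest array (0.40). Their summed level ran from 10344 to 17353 in controls and from 7178 to 8061 in livers labelled knockout. Of 13 mesenchymal markers 6 rose and 0 fell (median 0.56), with a summed level from 9772 to 11142 in controls and from 15141 to 16313 in livers labelled knockout. Endothelial markers went both ways, with 4 higher and 3 lower of 15 (median 0.37). The 3 lower were Stab2 (−1.30), Lyve1 (−1.14) and Gpr182 (−1.18). The 4 higher were Pecam1 (0.63), Cdh5 (0.53), Flt1 (0.65) and Emcn (1.00). Of 16 hepatoblast markers 1 rose, Foxa1 (0.75), and 0 fell (median 0.13). In 6 of the 16 all labelled knockout arrays lay above the controls, against 13% of all genes, and in 0 below. The part of leukocyte, erythroid, mesenchymal, endothelial or hepatoblast content in the members' differences was not tested.

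**Figure D4:**
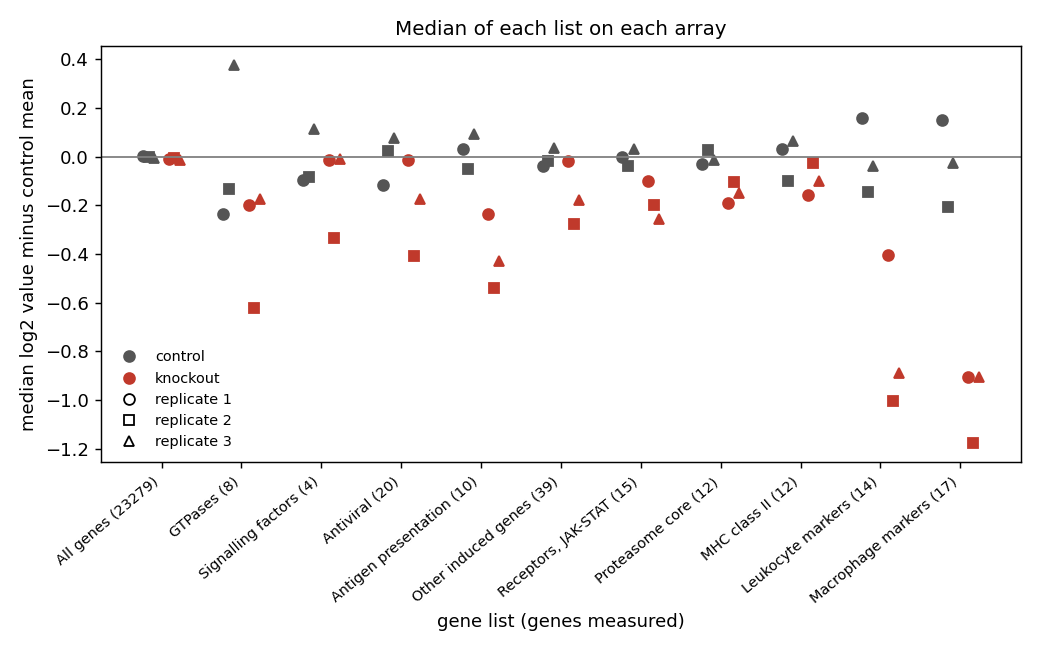
Each point is the median deviation of a gene list from the control mean on 1 array, in log2 units, grey for control and red for labelled knockout, with the number of genes measured in brackets. Labelled knockout medians of macrophage markers lie between −1.18 and −0.91 and of leukocyte markers between −1.01 and −0.40, those of antigen presentation lie between −0.54 and −0.24 in livers labelled knockout, and those of MHC class II between −0.16 and −0.02.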

How the data were processed

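Total RNA of whole fetal liver was prepared for 6 Affymetrix arrays, 3 labelled knockout and 3 control, per the labels' protocols. The deposited values are on a log2 scale, read from the values, and were made with RMA, per the submitters' processing notes; its version and the chip type are unknown here. Sorted values were identical on all 6 arrays (2.55 to 13.9, median 5.43). The platform annotation named 23281 of 24479 features, with symbols updated from RefSeq GRCm38.p6, 1198 had no name here, and for 2 genes with a pair of features the brighter was kept.

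Labelled knockout minus control was fitted for each gene by lmFit and eBayes of limma 3.58.1 (R 4.3.3), without covariates and with Benjamini-Hochberg adjustment over 23279 genes; the fit was tested on simulated data. No filter was applied, and no set test was run. An exact permutation test of 3 against 3 cannot go below p = 0.1. The members and lists were chosen with earlier results of these data known. Every measured member is named; of the other lists, genes past the threshold and preset genes are named, and exceptions are stated. Alternatives changed the variance model, array weights, dim genes, centring, sex, replicate block, threshold and arrays. Same-numbered arrays did not deviate together (correlations over genes of −0.05, −0.01 and −0.08), so the numbers were not taken as pairs.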

Additional observations from a re-analysis of the deposited data

How the results depend on the processing

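Calls depended on few arrays. Across the fits without 1 array, 0 to 7 members fell past the threshold against 6 in all arrays. The median log2 fold change of the members was −0.31 to −0.14, and 14 to 20 members had labelled knockout arrays below the controls. Groups separate more easily with 1 array fewer, and the share over all genes was not counted without single arrays, so this range has no background. In the other lists 1 to 10 genes fell and 0 to 1 rose in these fits. With the replicate block 2 members fell, Ifi47 and Igtp; the same-numbered arrays share only a number. With a sex term 0 members and 0 genes of the other lists fell by limma, with 9 members lower and 1 higher at an unadjusted p under 0.05. Over all genes 0 fell with that term. Against control replicate 2 alone the median of the members was the same, −0.23, because both estimates rest on that control. Each of these fits has fewer degrees of freedom, and the lone control is assumed to vary like the other arrays. In the other lists 22 genes fell and 2 rose at an adjusted p of 0.1; 1 rose with a variance trend, 1 with the dimmest 25% left out, 1 with the dimmest 50% left out, and 2 with genes at or under the olfactory receptor level left out. With that last filter the median was −0.64 over 6 GTPases and −0.55 over 8 antigen presentation genes. The 6 members called kept their sign in all 20 alternatives where they were tested, while 15 of the 36 others changed sign without a call in at least 1. What signal over background would add for the dim genes is not known from these values.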
